A study of Mus musculus with 8 samples.

Results

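The 35 genes described here encode enzymes and partners of fatty acid oxidation and acyl-CoA metabolism. They were listed by gene symbol, with earlier results of these data known, and all 35 were found among the 54532 genes of a count table. All 35 also passed the filter on low counts and stand among the 12234 genes tested, the lowest with 343 reads over the 8 libraries (Etfb). RNA sequencing was made from bone marrow-derived macrophages (BMDMs) of mice, macrophages grown in culture from bone marrow cells, in 4 groups of 2 libraries. Control cells received no stimulus. LPS cells received 100 ng/ml lipopolysaccharide, a bacterial cell wall component sensed through Tlr4, for 4 h. IL-4 cells received 20 ng/ml interleukin 4, a cytokine of type 2 immunity, for 24 h. IL-4 then LPS cells received the same IL-4 treatment, a wash, and then the same LPS treatment. All cells were unmodified as far as the labels say, and mouse strain, age and the washing of the IL-4 group are not given in the sources used here. The series title names trained immunity, a change in a later response left by a first stimulus, so each treatment was compared alone and in combination.

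Fatty acids are released from lipid droplets or lysosomes and activated to acyl-CoA by ligases at the endoplasmic reticulum, droplets and mitochondria. Carnitine carries the long acyl chains into mitochondria, where each turn of beta-oxidation runs through a dehydrogenase, a hydratase, a hydroxyacyl dehydrogenase and a thiolase, and the electrons pass through the electron transfer flavoprotein to the respiratory chain. Peroxisomes shorten very long and branched chains. In macrophages, IL-4 is known for raising fatty acid oxidation, and LPS for a shift toward glycolysis and lipid storage.

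Libraries held 7924932 to 9431852 counts, and the labels number those of each group 1 and 3. Nos2, Il6, Il1b and Tnf, 4 genes known to respond to LPS, rose in both LPS comparisons, and Retnla, Chil3 and Mgl2, known to respond to IL-4, rose with IL-4, while Arg1 held 0 to 1 reads without and 12 to 40 with IL-4 and was not called. Of 10 macrophage markers all 10 were expressed, with a summed level of 12700 to 25200 CPM over all libraries. The dendritic cell list (6 markers) summed to 0.952 to 1.48 CPM without and 7.05 to 13.6 CPM with LPS, and the lymphocyte list to 1.36 to 13.8 CPM with Cd3e, Cd8a, Cd79a and Ncr1 among its markers at 0. The part of such cells in the results was not tested. In bulk RNA, fewer cells of a type and less RNA per cell cannot be told apart. All 4 libraries numbered 1 held Xist reads (2936 to 4465) and no Ddx3y read, and all 4 numbered 3 held 543 to 643 Ddx3y reads and no Xist read, so replicate number and the sex of the cells cannot be told apart. The libraries of a group thus came from different animals, and whether those with the same number in different groups share an animal is not stated.

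Levels are given in CPM, the usual count unit per library total, with totals scaled by TMM factors (trimmed mean of M-values), always replicate 1 first and then replicate 3. Between genes they are compared per kilobase of exon. In control cells Lipa stood highest at 676 CPM per kb, followed by Plin2 at 262 and Cpt1a at 50.2, and Ppargc1b stood lowest at 0.950 CPM per kb. The 35 genes together held 0.584% and 0.575% of counts in control libraries, 0.314% and 0.343% with LPS, 0.614% and 0.611% with IL-4, and 0.346% and 0.345% with IL-4 then LPS. Without Lipa, the most abundant, the shares were 0.329% and 0.34%, 0.21% and 0.274%, 0.351% and 0.359%, and 0.223% and 0.264% in the same order. Both shares of library totals were lower in every library with LPS than in every library without it. On the TMM scale this held for the sum of the 35 genes (4675 to 5220 CPM without and 3820 to 4360 CPM with LPS) but not for the sum without Lipa, where the groups overlapped (2632 to 3066 CPM without and 2555 to 3492 CPM with LPS).

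**Figure D1:**
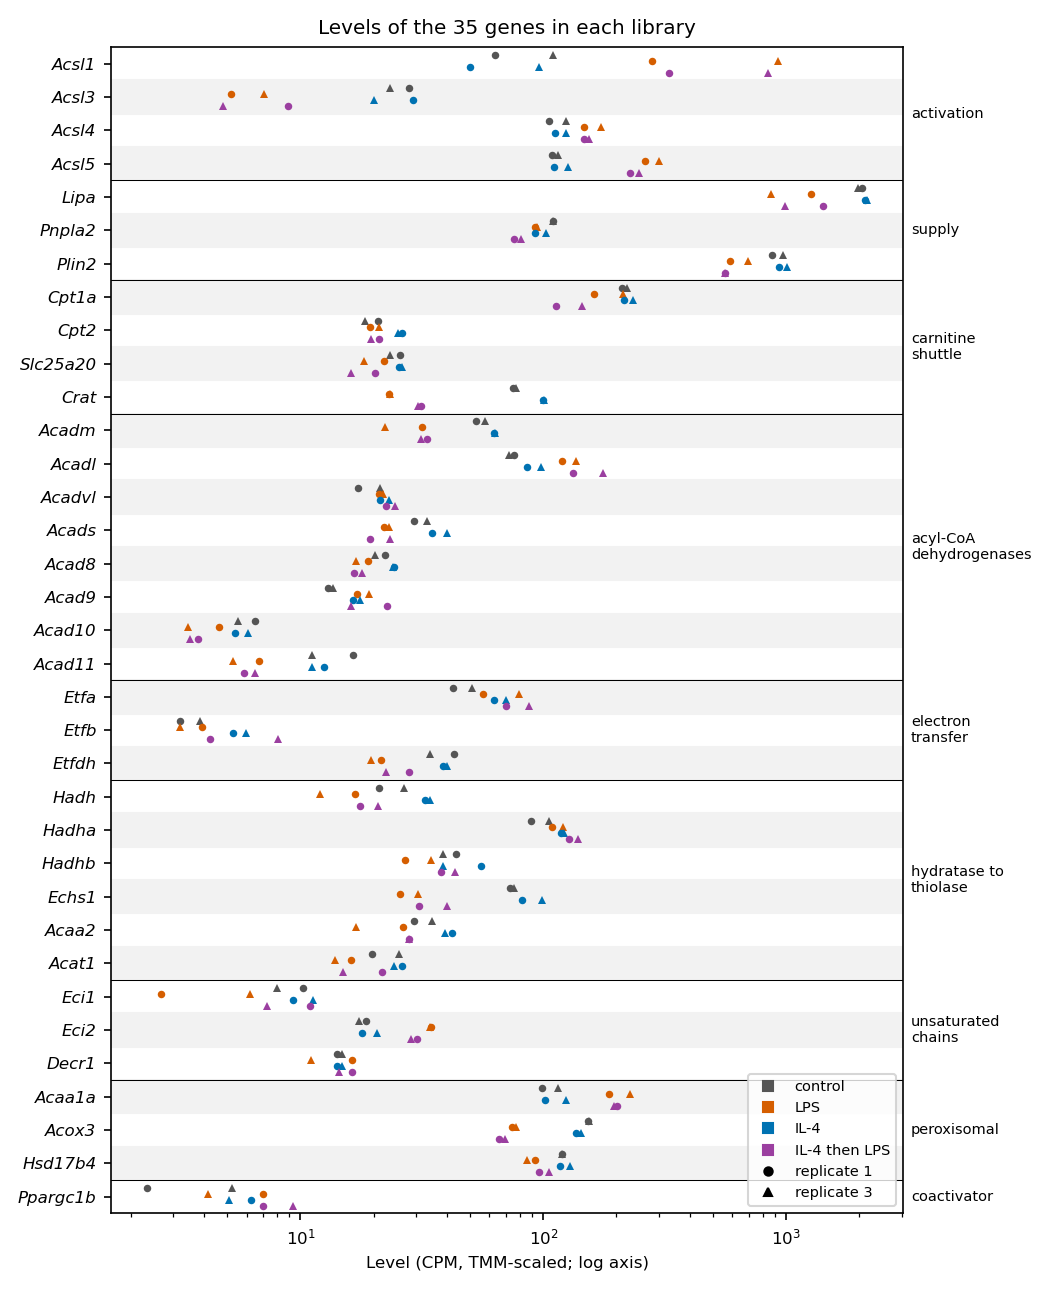
Level of each of the 35 genes (CPM, log axis) in each of the 8 libraries, with circles for replicate 1, triangles for replicate 3 and colours for the 4 groups, ordered by role. Acsl1 lies higher in all 4 LPS-treated libraries than in the 4 others and differs between the replicate numbers in every group, while Crat and Acox3 lie lower with LPS in tight pairs.

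LPS against control asked how these genes responded to LPS without IL-4. Calls were made with edgeR's quasi-likelihood test, at p-values under 0.05 after Benjamini-Hochberg adjustment over every gene tested. Of the 35 genes, 6 rose, 11 fell and 18 were not called. Over all genes 21.8% were called higher and 18.6% lower, against 17.1% and 31.4% of the 35. Their median log2 fold change was -0.29, beside -0.01 for all genes tested. The libraries of both groups did not overlap for 9 genes with LPS higher (25.7%, all genes 35.9%) and 20 with LPS lower (57.1%, all genes 36.7%). After IL-4, LPS raised 5 of the 35 and lowered 13 (all genes 20.7% and 18.6%), with a median of -0.34 beside -0.04. Here 9 genes lay higher and 20 lower without overlap (all genes 34.8% and 36.9%). Leaving out 1 library at a time gave medians of -0.4 to -0.29 with LPS and -0.43 to -0.33 after IL-4. Fewer of the 35 were called without some libraries, in fits that also called smaller shares of all genes.

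The scaling of the libraries bears on these counts. TMM factors were 1.17 to 1.25 without LPS and 0.786 to 0.866 with LPS. With scaling by library size alone the median of all genes moved from -0.01 to -0.62 in LPS against control and from -0.04 to -0.56 after IL-4. The counts of the 35 then became 2 higher and 25 lower (all genes 12.6% and 47%). After IL-4 they became 2 higher and 23 lower (12.6% and 43.5%). With upper-quartile scaling they became 5 higher and 20 lower (all genes 16.7% and 29%), at an all-gene median of -0.28. After IL-4 these were 4 higher and 20 lower (15.7% and 28%), again at -0.28. Under each of these scalings, the median of the 35 minus that of all genes was -0.28, and -0.31 after IL-4. Calls over all genes were 53.9% in the higher direction with TMM, 21.2% with library size and 36.6% with upper-quartile factors in LPS against control, and 52.8%, 22.5% and 36% after IL-4. Library-size scaling left 5 rather than 13 of the 35 above 0 in LPS against control, and turned Acsl4, Cpt2, Acadvl, Acad9, Hadha, Etfa, Etfb and Ppargc1b to values below 0. Called lower in addition were Cpt1a, Cpt2, Slc25a20, Acadvl, Acads, Acad8, Acad10, Hadha, Hadhb, Eci1, Decr1, Acaa2, Acat1 and Pnpla2, and after IL-4 Cpt2, Slc25a20, Acadvl, Acad10, Hadha, Hadhb, Hsd17b4, Acaa2, Acat1 and Pnpla2.

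Same-numbered libraries deviated together, and a fit with the replicate number as a block called 7 higher and 15 lower with LPS (all genes 28.2% and 25.5%), and 6 and 17 after IL-4 (26% and 25.8%). It added Etfa (0.52, edgeR adjusted p = 0.00435) as higher with LPS, and Acads (-0.46, 0.0122), Acaa2 (-0.58, 0.0297), Acat1 (-0.60, 0.0381) and Eci1 (-1.04, 0.0438) as lower. After IL-4 it added Acsl4 (0.36, edgeR adjusted p = 0.0126) as higher, and Slc25a20 (-0.51, 0.0179), Pnpla2 (-0.32, 0.0233), Acaa2 (-0.54, 0.0353) and Hsd17b4 (-0.29, 0.0431) as lower. No call of the 35 was lost with the block. Calls in the following paragraphs are those with TMM scaling and no block unless another fit is named.

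**Figure D2:**
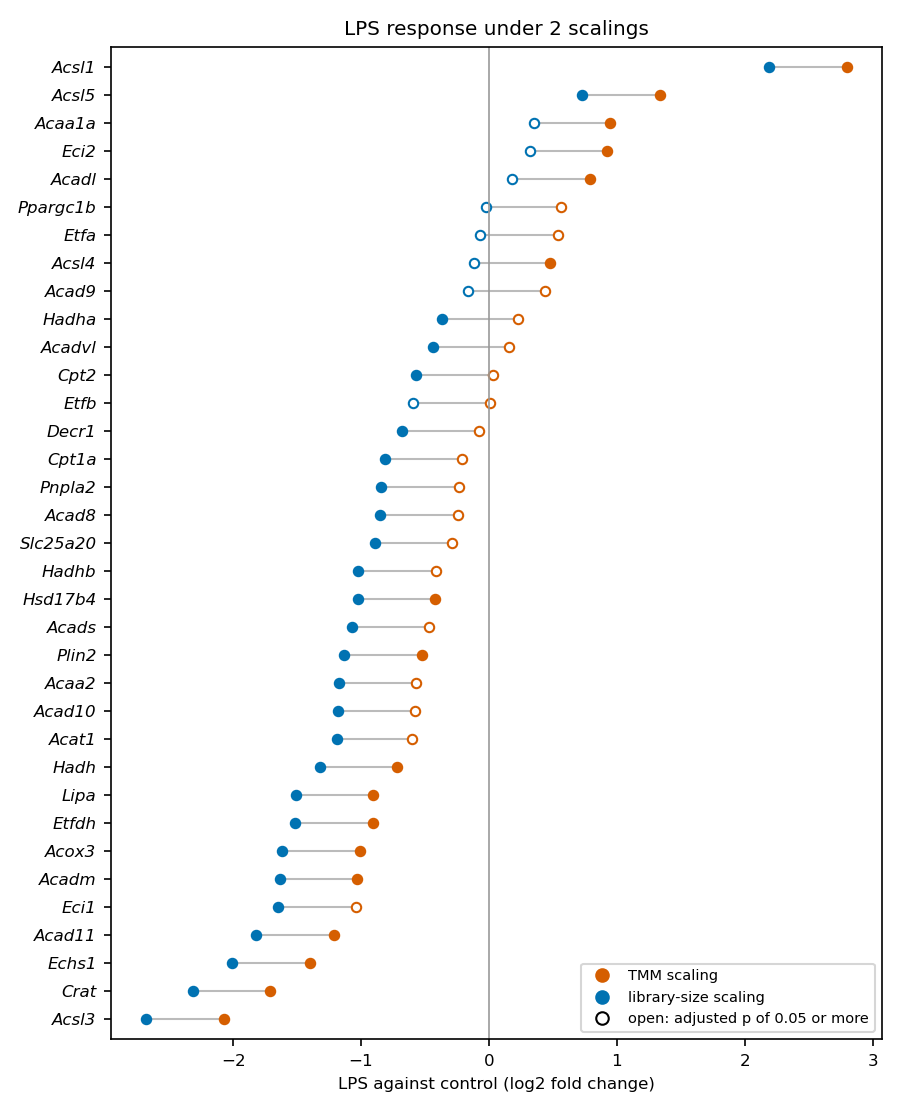
Log2 fold change of each of the 35 genes in LPS against control with TMM scaling (orange) and with library-size scaling (blue), sorted by the former, with open points for adjusted p-values of 0.05 or more. Every gene shifts left by a similar amount, Acsl1 and Acsl5 stay called higher, and the number of genes above 0 goes from 13 to 5.

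The 4 acyl-CoA ligases, which activate long-chain fatty acids, moved apart with LPS. Acsl1 (ENSMUSG00000018796, chromosome 8, 46471037 to 46536051, mm10) was measured at 63.2 and 109 CPM in the control, 279.8 and 925 in the LPS, 49.9 and 96.1 in the IL-4 and 329 and 838 in the IL-4 then LPS libraries. Every LPS-treated library exceeded every other library, and replicate 3 exceeded replicate 1 in all 4 groups, by 0.79 to 1.73 on the log2 scale. Acsl1 rose by a log2 fold change of 2.80 ± 0.68 (SE) with LPS (edgeR adjusted p = 0.0131) and 3.0 ± 0.69 after IL-4 (adjusted p = 0.0106), the largest increases among the 35 in both comparisons. With the replicate block the values were 2.63 ± 0.21 with LPS (edgeR adjusted p = 7.32e-06) and 2.92 ± 0.21 after IL-4 (4.2e-06). Within replicate numbers the log2 ratios were 2.15 and 3.08 with LPS and 2.72 and 3.12 after IL-4. The call without IL-4 was lost when control replicate 1 or LPS replicate 3 was left out (highest edgeR adjusted p 0.0896, log2 fold change 1.70 to 3.42 over the 8 omissions). After IL-4 it was lost without IL-4 replicate 1 or IL-4 then LPS replicate 3 (0.0684, 2.17 to 3.57).

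Acsl5 (ENSMUSG00000024981, chromosome 19, 55251938 to 55297720), a ligase of the outer mitochondrial membrane and endoplasmic reticulum, was measured at 108 and 115 CPM in the control, 262 and 301 in the LPS, 111 and 127 in the IL-4 and 226 and 247 in the IL-4 then LPS libraries. It rose by 1.34 ± 0.14 with LPS (edgeR adjusted p = 0.000243) and by 1.0 ± 0.14 after IL-4 (0.00111), without overlap between the groups. Acsl5 stayed called in every omission of 1 library and, like Acsl1, under each of the 3 scalings. Zdhhc6, which overlaps Acsl5 on the opposite strand, held 26.8% as many reads and was not called (0.41 ± 0.19 and 0.32 ± 0.19). Acsl3 (ENSMUSG00000032883, chromosome 1, 78657825 to 78707743), a ligase of nascent lipid droplets, went the other way. It was measured at 27.9 and 23.4 CPM in the control, 5.18 and 7.05 in the LPS, 29.0 and 20.1 in the IL-4 and 8.9 and 4.8 in the IL-4 then LPS libraries. The log2 fold change was -2.07 ± 0.33 with LPS (edgeR adjusted p = 0.00194) and -1.85 ± 0.33 after IL-4 (0.00329), the largest decreases among the 35. Utp14b, which overlaps Acsl3 on the same strand and held 49.7% as many reads, fell too (-1.88 ± 0.35 and -2.35 ± 0.36), and reads of such pairs could not be told apart.

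Acsl4 (ENSMUSG00000031278, chromosome X, 142317993 to 142390535), which prefers arachidonic acid, was measured at 105 and 124 CPM in the control, 147 and 172 in the LPS, 111 and 124 in the IL-4 and 147 and 155 in the IL-4 then LPS libraries. It was called higher with LPS by 0.48 ± 0.15 (edgeR adjusted p = 0.0325) but turned to -0.12 ± 0.12 (0.412) with library-size scaling and was lost with upper-quartile scaling (0.22, 0.227). The call was also lost in 7 of 8 omissions, all but that of LPS replicate 1 (highest adjusted p 0.266). After IL-4 the value was 0.36 ± 0.15 (0.0902).

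The make-up of the ligase pool does not depend on scaling between libraries. Of reads per kb over the 4 ligases, Acsl1 held 11.1% and 16.7% in control, 24.5% and 48.1% in LPS, 8.69% and 14.6% in IL-4, and 29.3% and 49.8% in IL-4 then LPS libraries. Acsl3 held 7.34% to 12.2% without LPS and 0.686% to 1.91% with it. Acsl4 held 35.9% to 37.6% without and 17.4% to 25.4% with LPS. Acsl5 held 31.7% to 49.5% over all libraries, with overlap between those with and without LPS. The ratio of Acsl1 to Acsl3 per kb was 0.715 to 1.98 in the 4 libraries without LPS and 15.4 to 72.5 in the 4 with it.

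**Figure D3:**
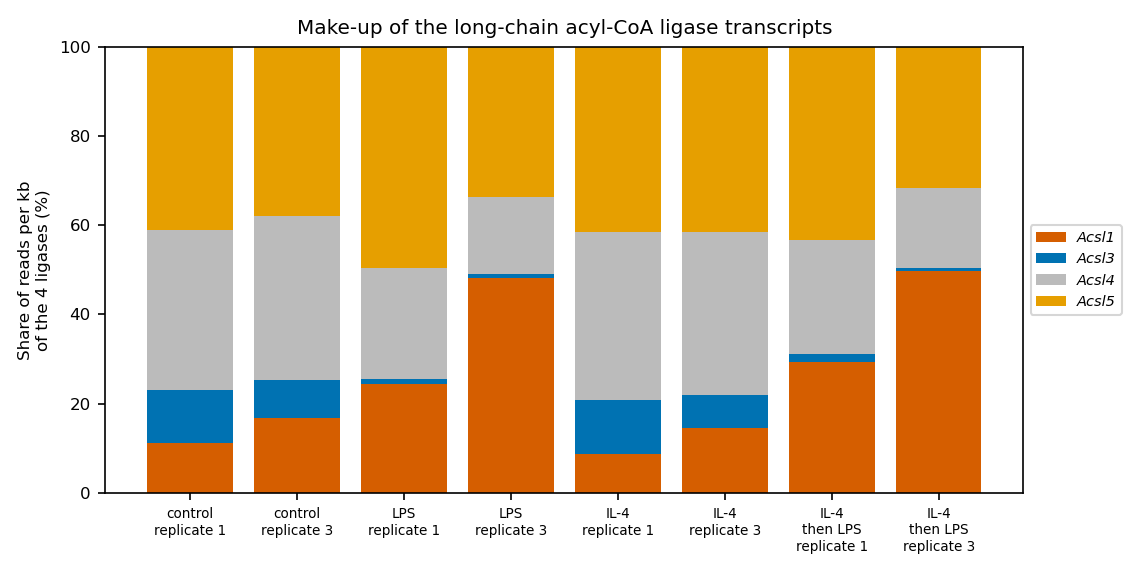
Share of each of the 4 long-chain acyl-CoA ligases (%) in their summed reads per kb, 1 stacked bar per library, with no error bars since each bar is 1 library. Acsl1 grows and Acsl3 shrinks in all 4 LPS-treated libraries, and Acsl1 is larger in replicate 3 of each group.

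The promoters of Acsl1 are shown because it rose most and has 2 RefSeq starts, and that of Acsl5 because it rose as well. Those of Acadm and Echs1, described below, are shown beside them as genes that fell and that hold AGGTCA, the core of many nuclear receptor elements. Each run is the 250 bases before a start (RefSeq, GRCm38.p6), read 5′ to 3′ on the gene's strand, with AGGTCA or its reverse complement TGACCT in capitals.
Acsl1, first start, chr8:46470787-46471036, forward strand: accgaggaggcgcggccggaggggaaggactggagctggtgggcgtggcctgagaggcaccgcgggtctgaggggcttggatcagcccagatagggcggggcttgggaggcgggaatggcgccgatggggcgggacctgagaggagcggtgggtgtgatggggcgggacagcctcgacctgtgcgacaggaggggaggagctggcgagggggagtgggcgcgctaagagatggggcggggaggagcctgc
Acsl1, second start, chr8:46490716-46490965, forward strand: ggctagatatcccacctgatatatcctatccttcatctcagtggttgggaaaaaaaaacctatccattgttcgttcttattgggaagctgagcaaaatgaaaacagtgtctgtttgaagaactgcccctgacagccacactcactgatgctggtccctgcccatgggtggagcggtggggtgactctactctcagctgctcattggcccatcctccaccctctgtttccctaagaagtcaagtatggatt
Acsl5, chr19:55253119-55253368, forward strand: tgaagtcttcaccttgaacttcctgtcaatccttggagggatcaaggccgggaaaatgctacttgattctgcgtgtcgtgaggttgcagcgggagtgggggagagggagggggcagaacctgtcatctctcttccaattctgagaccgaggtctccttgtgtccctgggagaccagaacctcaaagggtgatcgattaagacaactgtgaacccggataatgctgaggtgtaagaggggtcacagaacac
Acadm, chr3:153944644-153944893, reverse strand: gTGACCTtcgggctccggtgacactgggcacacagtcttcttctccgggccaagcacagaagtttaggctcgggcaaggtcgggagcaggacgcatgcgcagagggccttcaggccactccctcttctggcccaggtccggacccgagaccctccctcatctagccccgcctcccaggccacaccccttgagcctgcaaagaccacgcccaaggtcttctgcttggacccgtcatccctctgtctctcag
Echs1, chr7:140116422-140116671, reverse strand: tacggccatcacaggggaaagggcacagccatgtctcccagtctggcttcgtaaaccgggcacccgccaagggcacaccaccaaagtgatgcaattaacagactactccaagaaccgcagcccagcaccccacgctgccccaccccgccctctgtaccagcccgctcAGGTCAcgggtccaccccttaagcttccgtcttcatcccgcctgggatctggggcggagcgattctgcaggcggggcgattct
The reference windows ran from 250 bases before to 50 after the start, and only the 250 bases before it were searched. Of the 35 genes, 28 had at least 1 window, giving 29 windows. AGGTCA on either strand was in 5 of these 29 (17.2%: Acadm, Acadvl, Cpt1a, Echs1 and Plin2), beside 14.0% of 32851 windows of all genes. TCAAGGTCA, an element of the estrogen-related receptors that contains AGGTCA, was in 0 of 29 on either strand, beside 0.387% of all windows. The shared letters are a description of these windows only.

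Of the 3 genes of lipid droplets and lysosomal lipid release, Lipa and Plin2 fell. Lipa (ENSMUSG00000024781, chromosome 19, 34492318 to 34527474), the lysosomal acid lipase that frees fatty acids from cholesteryl esters and triglycerides, was measured at 2043 and 1970 CPM in the control, 1265 and 868 in the LPS, 2113 and 2154 in the IL-4 and 1420 and 993 in the IL-4 then LPS libraries. The libraries with LPS all lay below those without. Lipa changed by -0.91 ± 0.24 with LPS (edgeR adjusted p = 0.0177) and by -0.82 ± 0.24 after IL-4 (0.0271), calls that were lost without control replicate 1 or LPS replicate 3 (highest 0.103), and without IL-4 replicate 1, IL-4 replicate 3 or IL-4 then LPS replicate 3 (0.153). Plin2 (ENSMUSG00000028494, chromosome 4, 86648386 to 86670060), the droplet coat protein perilipin 2, was measured at 873 and 968 CPM in the control, 585 and 695 in the LPS, 933 and 1006 in the IL-4 and 561 and 561 in the IL-4 then LPS libraries. It changed by -0.52 ± 0.15 (0.0267) and -0.79 ± 0.15 (0.00489). The first call was lost without control replicate 1, control replicate 3 or LPS replicate 1 (highest 0.149), and the second in no omission. Pnpla2, the droplet triglyceride lipase ATGL, was measured at 109 and 109.7 CPM in the control, 92.4 and 94.1 in the LPS, 92.7 and 102 in the IL-4 and 75.5 and 81.0 in the IL-4 then LPS libraries and was not called (-0.23 ± 0.12 and -0.32 ± 0.12).

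Within the carnitine shuttle, Crat stood apart. Crat (ENSMUSG00000026853, chromosome 2, 30400471 to 30415813), carnitine acetyltransferase, which moves short acyl groups between CoA and carnitine, was measured at 74.7 and 77.4 CPM in the control, 23.1 and 23.4 in the LPS, 99.4 and 101 in the IL-4 and 31.5 and 30.5 in the IL-4 then LPS libraries. The replicates of a group differed by at most 0.05 on the log2 scale, and no groups overlapped. Crat fell by 3.27-fold with LPS (log2 -1.71 ± 0.12, edgeR adjusted p = 3.13e-05) and by 3.23-fold after IL-4 (log2 -1.69 ± 0.12, 3.37e-05), and kept both calls in all 8 omissions. Dolpp1 overlaps Crat on the opposite strand, held 26.8% as many reads and fell as well (-0.97 ± 0.21 and -2.08 ± 0.21), and the strand setting of the counting was not given.

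Cpt1a (ENSMUSG00000024900, chromosome 19, 3323301 to 3385732), the rate-limiting carnitine palmitoyltransferase of the outer membrane, was measured at 210.4 and 221 CPM in the control, 162 and 212 in the LPS, 216 and 234 in the IL-4 and 112 and 144 in the IL-4 then LPS libraries. LPS libraries overlapped with control libraries, and IL-4 then LPS libraries lay below all others. The change was -0.21 ± 0.18 with LPS, not called (0.385), and -0.81 ± 0.18 after IL-4, called lower (edgeR adjusted p = 0.00974) but not without IL-4 replicate 3 or IL-4 then LPS replicate 1 (highest 0.0652). Cpt2, its inner-membrane partner, was measured at 20.9 and 18.5 CPM in the control, 19.3 and 21 in the LPS, 26.2 and 25.1 in the IL-4 and 21 and 19.5 in the IL-4 then LPS libraries, and was not called (0.03 ± 0.15 and -0.34 ± 0.15). Slc25a20, the carnitine-acylcarnitine carrier, held 16.2 to 26.3 CPM and was not called (-0.29 ± 0.18 and -0.50 ± 0.18). The ratio of Crat to Cpt2 per kb was 1.59 to 1.86 without LPS and 0.493 to 0.695 with it. That of Cpt1a to Cpt2 overlapped, at 4.57 to 6.65 without and 2.97 to 5.62 with LPS.

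The 8 acyl-CoA dehydrogenases, which catalyse the first oxidation step for chains of different length or kind, also split. Acadl (ENSMUSG00000026003, chromosome 1, 66830839 to 66863277), the long-chain enzyme, was measured at 75.5 and 72.3 CPM in the control, 119 and 136 in the LPS, 85.7 and 97.5 in the IL-4 and 132 and 176 in the IL-4 then LPS libraries, with no overlap between libraries with and without LPS. It rose by 0.79 ± 0.17 with LPS (edgeR adjusted p = 0.0075) and 0.75 ± 0.17 after IL-4 (0.00947). Library-size scaling gave 0.18 (0.309) and 0.23 (0.213), and the calls were lost without either control library (highest 0.057), or without IL-4 replicate 1 or IL-4 then LPS replicate 3 (0.0724). Acadm (ENSMUSG00000062908, chromosome 3, 153922357 to 153944632), the medium-chain enzyme, was measured at 52.9 and 57.4 CPM in the control, 31.6 and 22.2 in the LPS, 62.4 and 63.3 in the IL-4 and 33.1 and 31.3 in the IL-4 then LPS libraries. Here the LPS-treated libraries all lay below the others. Acadm changed by -1.03 ± 0.18 (0.00264) and -0.97 ± 0.17 (0.00365), and kept both calls in all 8 omissions. The ratio of Acadl to Acadm per kb, free of the scaling, was 2.46 to 3.01 in the 4 libraries without LPS and 7.34 to 11.9 in the 4 with it.

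Acad11, a dehydrogenase of longer chains, was measured at 16.5 and 11.2 CPM in the control, 6.72 and 5.25 in the LPS, 12.5 and 11.2 in the IL-4 and 5.83 and 6.49 in the IL-4 then LPS libraries. It fell by 2.32-fold with LPS (log2 -1.21 ± 0.27, edgeR adjusted p = 0.00873) and by 1.92-fold after IL-4 (log2 -0.94 ± 0.27, 0.026). The first call was lost without LPS replicate 3 (0.0566), and the second without any 1 of the 4 libraries compared (highest 0.111). Acads, the short-chain enzyme, was measured at 29.3 and 33.3 CPM in the control, 22.1 and 23.2 in the LPS, 34.8 and 40.0 in the IL-4 and 19.2 and 23.5 in the IL-4 then LPS libraries, and Acad8, the isobutyryl-CoA dehydrogenase of valine breakdown, at 22.2 and 20.3 CPM in the control, 19.0 and 16.9 in the LPS, 24.2 and 24.0 in the IL-4 and 16.6 and 17.9 in the IL-4 then LPS libraries. With TMM scaling and no block both were called lower after IL-4 and not without it, Acads by -0.81 ± 0.17 (edgeR adjusted p = 0.0067, lost without IL-4 replicate 3 at 0.0568) and Acad8 by -0.48 ± 0.15 (0.0396, lost in all 8 omissions, highest 0.156). Without IL-4 they stood at -0.47 ± 0.17 and -0.24 ± 0.15. Library-size scaling called both lower without IL-4 too (-1.07, edgeR adjusted p = 0.000813, and -0.85, 0.00381), and so did the replicate block for Acads (-0.46, 0.0122). For neither was the difference between the responses after and without IL-4 called (-0.34 ± 0.23 and -0.24 ± 0.22, adjusted p = 1 for both). Acadvl, the very long-chain enzyme (0.16 ± 0.17 and 0.08 ± 0.16), Acad9, also an assembly factor of complex I (0.44 ± 0.20 and 0.18 ± 0.20), and Acad10 (-0.58 ± 0.28 and -0.65 ± 0.29) were not called. Dvl2, which overlaps Acadvl on the opposite strand, held 115% as many reads and fell (-0.96 ± 0.22 and -1.29 ± 0.22).

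Of the 3 genes of electron transfer, the dehydrogenase changed and the flavoprotein subunits did not pass the test without the block. Etfdh (ENSMUSG00000027809, chromosome 3, 79603788 to 79629500), which hands electrons to ubiquinone, was measured at 42.9 and 34.1 CPM in the control, 21.4 and 19.5 in the LPS, 38.6 and 40.2 in the IL-4 and 27.9 and 22.4 in the IL-4 then LPS libraries. It changed by -0.91 ± 0.18 with LPS (edgeR adjusted p = 0.00493) and -0.65 ± 0.18 after IL-4 (0.0215), the latter lost without IL-4 replicate 1, IL-4 replicate 3 or IL-4 then LPS replicate 3 (highest 0.128). An overlapping gene on the opposite strand, 4930579G24Rik, held 13.5% as many reads and also fell. Etfa, the alpha subunit, was measured at 42.7 and 50.7 CPM in the control, 56.3 and 79.0 in the LPS, 62.8 and 70.0 in the IL-4 and 70.4 and 87.1 in the IL-4 then LPS libraries, and its change was 0.54 ± 0.20 (0.0632) and 0.25 ± 0.20 (0.355). Etfb, the beta subunit, was low, at 3.18 to 8.05 CPM, with 0.01 ± 0.38 and 0.13 ± 0.35. The ratio of Etfa to Etfdh per kb was 4.07 to 7.11 without LPS and 10.3 to 16.6 with it. That of Etfa to Etfb overlapped, at 7.42 to 8.45 without and 6.87 to 15.8 with LPS.

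Among the 6 genes of the later steps, Echs1 and Hadh fell and none rose. Echs1 (ENSMUSG00000025465, chromosome 7, 140105710 to 140116476), the short-chain enoyl-CoA hydratase, was measured at 73.0 and 75.6 CPM in the control, 25.6 and 30.5 in the LPS, 81.9 and 98.5 in the IL-4 and 30.6 and 40.1 in the IL-4 then LPS libraries. It fell by 2.65-fold with LPS (log2 -1.40 ± 0.18, edgeR adjusted p = 0.000586) and by 2.55-fold after IL-4 (log2 -1.35 ± 0.18, 0.000715), and stayed called in all omissions. Paox overlaps it on the opposite strand, held 15.6% as many reads and fell further (-2.64 ± 0.36 and -3.01 ± 0.38). Hadh, the 3-hydroxyacyl-CoA dehydrogenase for shorter chains, was measured at 21 and 26.6 CPM in the control, 16.8 and 12.0 in the LPS, 32.5 and 34 in the IL-4 and 17.6 and 20.8 in the IL-4 then LPS libraries. Its change was -0.72 ± 0.21 (edgeR adjusted p = 0.0284) and -0.79 ± 0.21 (0.019), lost without control replicate 3 or LPS replicate 3 (highest 0.16), and without any 1 of the 4 libraries compared after IL-4 (0.0994). Acaa2, the mitochondrial thiolase, at -0.57 ± 0.21 and -0.54 ± 0.21, and Acat1, the acetoacetyl-CoA thiolase, at -0.60 ± 0.23 and -0.46 ± 0.22, were not called.

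Hadha and Hadhb encode the subunits of the mitochondrial trifunctional protein and lie head to head. On chromosome 5 (mm10), Hadha starts at 30155162 on the reverse strand and Hadhb at 30155248 on the forward strand. The 85 bases between them are shown because both genes start at their edges. CG pairs, of which there are 9, are in capitals, and 69.4% of the bases are G or C (RefSeq, GRCm38.p6).
Hadha and Hadhb, chr5:30155163-30155247, forward strand: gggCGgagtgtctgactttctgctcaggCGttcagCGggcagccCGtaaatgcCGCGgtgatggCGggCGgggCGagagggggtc
Neither gene was called with TMM scaling. With library-size scaling both were called lower, Hadha at -0.37 (edgeR adjusted p = 0.0273) and -0.37 (0.0289) after IL-4, and Hadhb at -1.02 (0.00602) and -0.74 (0.0231). Hadha was measured at 89.3 and 106 CPM in the control, 108 and 120.3 in the LPS, 118 and 122 in the IL-4 and 127 and 139 in the IL-4 then LPS libraries, a change of 0.23 ± 0.14 and 0.15 ± 0.14. Hadhb was measured at 43.5 and 38.5 CPM in the control, 27.0 and 34.5 in the LPS, 55.2 and 38.6 in the IL-4 and 38.1 and 43.2 in the IL-4 then LPS libraries, a change of -0.41 ± 0.21 and -0.21 ± 0.21. The ratio of Hadha to Hadhb per kb was 1.55 to 2.38 in the 4 libraries without LPS and 2.43 to 3.03 in the 4 with it, with 2.38 and 2.43 as the nearest values.

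Of the enzymes for unsaturated chains, Eci2 rose. Eci2 (ENSMUSG00000021417, chromosome 13, 34977748 to 35027096), an enoyl-CoA isomerase of peroxisomes and mitochondria, was measured at 18.7 and 17.4 CPM in the control, 34.4 and 34.0 in the LPS, 17.9 and 20.7 in the IL-4 and 30.2 and 28.4 in the IL-4 then LPS libraries, and the LPS-treated libraries all lay above the others. It rose by 0.92 ± 0.15 with LPS (edgeR adjusted p = 0.00202) and 0.60 ± 0.15 after IL-4 (0.0144, lost without IL-4 replicate 1 or IL-4 then LPS replicate 1, highest 0.105), while library-size scaling gave 0.32 (0.109) and 0.09 (0.648). With upper-quartile scaling the call after IL-4 was lost as well (0.36, 0.0853). Eci1, the mitochondrial isomerase, at 2.66 to 11.2 CPM (-1.04 ± 0.40 and -0.18 ± 0.38), and Decr1, the dienoyl-CoA reductase (-0.08 ± 0.22 and 0.08 ± 0.22), were not called.

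The 3 peroxisomal genes differed. Acaa1a (ENSMUSG00000036138, chromosome 9, 119339676 to 119350299), the peroxisomal thiolase, was measured at 98.3 and 115 CPM in the control, 186 and 227 in the LPS, 101 and 124 in the IL-4 and 201 and 196 in the IL-4 then LPS libraries. It rose by 0.95 ± 0.17 with LPS (edgeR adjusted p = 0.0029) and 0.81 ± 0.16 after IL-4 (0.00617, lost without IL-4 replicate 1 at 0.0557), while library-size scaling gave 0.35 (0.0656) and 0.30 (0.105). Myd88, an adaptor of Toll-like receptors, overlaps Acaa1a on the opposite strand, held 118% as many reads, and rose by 2.60 ± 0.18 and 2.56 ± 0.18. Without a stated strand setting, Acaa1a and Myd88 reads could not be told apart where the genes overlap. Acaa1b, a near copy, held 0 to 6 reads per library. Acox3 (ENSMUSG00000029098, chromosome 5, 35583040 to 35615352), an acyl-CoA oxidase for branched chains, was measured at 153 and 154 CPM in the control, 74.5 and 77.4 in the LPS, 136 and 143 in the IL-4 and 65.5 and 69.8 in the IL-4 then LPS libraries. It changed by -1.01 ± 0.11 (edgeR adjusted p = 0.000338) and -1.04 ± 0.12 (0.000308) and kept both calls in all 8 omissions. Hsd17b4, the multifunctional hydratase and dehydrogenase of peroxisomes, was measured at 119 and 119 CPM in the control, 92.8 and 85.5 in the LPS, 117 and 129 in the IL-4 and 95.5 and 105 in the IL-4 then LPS libraries. It was called lower without IL-4 (-0.42 ± 0.12, 0.0291), a call lost without any 1 of the 4 libraries compared (highest 0.153), and stood at -0.29 ± 0.12 after IL-4 (0.0968). Cd63-ps, a pseudogene that overlaps Hsd17b4 on the same strand, held 98.5% as many reads and was not called (0.22 ± 0.16 and 0.08 ± 0.16). Ppargc1b, the coactivator PGC-1beta of oxidative genes, was low, at 2.34 to 9.34 CPM, and not called (0.56 ± 0.44 and 0.53 ± 0.42).

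The responses to LPS without and after IL-4 come from different libraries. Of the 35 genes, 5 rose in both (Acsl1, Acsl5, Acaa1a, Acadl, Eci2) and 10 fell in both (Acsl3, Crat, Echs1, Acad11, Acadm, Acox3, Lipa, Etfdh, Hadh, Plin2), beside 18.6% and 14.6% of all genes tested. A further 2 were called only without IL-4 (Hsd17b4 and Acsl4), 3 only after it (Cpt1a, Acads and Acad8), and 15 in neither. None was called in opposite directions. Across the 35 genes the log2 fold changes had a Pearson r of 0.96 and a Spearman rho of 0.91, and across all 12234 genes 0.93 and 0.91. Genes are not independent replicates, and all values of a library share its scaling.

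**Figure D4:**
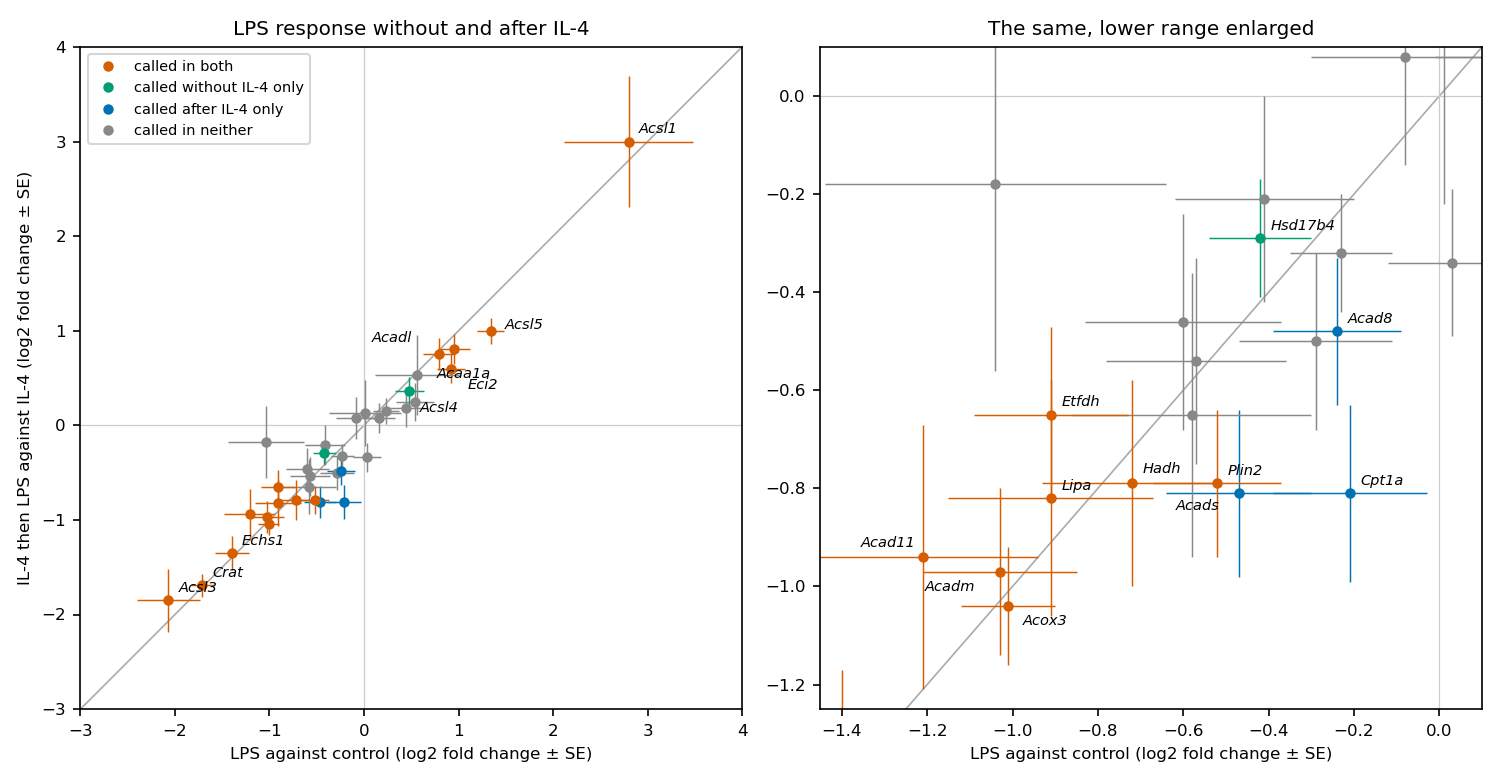
Log2 fold change of the 35 genes with LPS without IL-4 (horizontal) and after IL-4 (vertical), with bars of 1 SE, the line of equal change, and the crowded lower range enlarged at the right. Points lie near the line from Acsl3 at the lower left to Acsl1 at the upper right, with Cpt1a below it.

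Whether earlier IL-4 altered the response to LPS was tested as the difference of both responses. By edgeR's quasi-likelihood test 0 of the 35 genes were called, as was none of all 12234 (0%), and 1 of the 35 had an unadjusted p under 0.05, beside 2.63% of all genes. DESeq2 called 0 of the 35. The smallest p belonged to Cpt1a, with a difference of -0.60 ± 0.26 (edgeR adjusted p = 1) and within-number differences of -0.56 and -0.64. Next came Cpt2 at -0.38 ± 0.21 and Acsl5 at -0.34 ± 0.20, also with an adjusted p of 1. For Acsl1 the difference was 0.19 ± 0.90 (0.29 ± 0.28 with the replicate block), with the largest SE among the 35 without the block. For Crat it was 0.02 ± 0.16 and for Acox3 -0.03 ± 0.16, with the smallest.

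IL-4 against control asked what IL-4 did at rest. By edgeR 0 of the 35 genes were called (all genes 0.0572% higher and 0.00817% lower), and DESeq2 called 0 as well. At an unadjusted p under 0.05 there were 4 of 35, all with IL-4 higher, beside 4.18% of all genes in that direction. They were Crat at 0.40 ± 0.11 (edgeR adjusted p = 0.397), Etfa at 0.51 ± 0.20 (0.617), Cpt2 at 0.38 ± 0.15 (0.627) and Hadh at 0.48 ± 0.20 (0.681). The log2 fold change was above 0 for 29 of the 35 genes, with a median of 0.16, beside 49.6% and a median of 0 for all genes. Libraries did not overlap for 14 genes with IL-4 higher (all genes 19.4%) and 2 with IL-4 lower (19.2%), and 21 were above 0 within both replicate numbers (31.8%). Without IL-4 replicate 3, 20 of the 35 stood above 0, with a median of 0.10 beside -0.05 for all genes. The median of the 35 minus that of all genes was then 0.14, and 0.16 with all libraries.

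The effect of IL-4 in cells that then received LPS was tested against LPS, with no library of the former comparison. By edgeR 0 of the 35 were called (all genes 0.049% higher and 0.0163% lower), DESeq2 called 0, and 3 had an unadjusted p under 0.05 (2 higher, 1 lower), beside 3.83% and 4.67% of all genes. Crat stood at 0.42 ± 0.12 (edgeR adjusted p = 0.369), Cpt1a at -0.54 ± 0.18 (0.46) and Eci1 at 1.03 ± 0.41 (0.537). With the replicate block Cpt1a was called lower (-0.54, edgeR adjusted p = 0.0496, all genes 1.08% higher and 1.22% lower). Eci1 was lowest in LPS replicate 1, with 2.66 and 6.22 CPM in LPS and 10.9 and 7.27 CPM in IL-4 then LPS libraries. Of the 35, 22 were above 0, with a median of 0.15 beside -0.03 for all genes. Libraries did not overlap for 12 genes with IL-4 higher (all genes 16.6%) and 6 with it lower (19.8%).

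Averaged over cells with and without LPS, the IL-4 effect was again called for 0 of the 35 genes by edgeR without a block (all genes 0.376% higher and 0.294% lower) and 0 by DESeq2. At an unadjusted p under 0.05 there were 8 higher (22.9%, all genes 6.4%) and 1 lower (2.86%, all genes 6.72%). Crat had the smallest p, at 0.41 ± 0.08, a ratio of 1.33 (edgeR adjusted p = 0.092), with 0.43 and 0.38 within the replicate numbers. With the replicate block 2 of the 35 were called higher, Crat (0.41, edgeR adjusted p = 0.0152) and Etfa (0.37, 0.0301), beside 3.21% of all genes higher and 3.28% lower. Hadh followed at 0.45 ± 0.15 (0.268) and Etfb at 0.73 ± 0.26 (0.297). Etfb held 3.2 and 3.86 CPM in control, 3.92 and 3.18 in LPS, 5.27 and 5.98 in IL-4 and 4.23 and 8.04 in IL-4 then LPS libraries. It was the only 1 of the 35 whose 4 libraries with IL-4 all lay above the 4 without (2.86%, close to the 2.19% of all genes). The nearest libraries were LPS replicate 1 with 28 reads and IL-4 then LPS replicate 1 with 29. The others higher at that p were Hadha (0.26 ± 0.10), Etfa (0.36 ± 0.14), Echs1 (0.31 ± 0.12), Acadl (0.29 ± 0.12) and Acaa2 (0.36 ± 0.15), and Pnpla2 was lower (-0.21 ± 0.08). By role these 8 were 1 gene of the carnitine shuttle, 1 dehydrogenase, 2 of electron transfer and 4 of the later steps. The median IL-4 effect by role was 0.30 for the 6 later-step genes, 0.36 for electron transfer and 0.13 for the dehydrogenases. It was 0.09 for the enzymes for unsaturated chains, 0.08 for the carnitine shuttle and 0.01 for the peroxisomal genes. For the ligases it was -0.05 and for the genes of lipid droplets and lysosomal lipid release -0.06. The coactivator Ppargc1b, 1 gene at few reads, stood at 0.57.

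**Figure D5:**
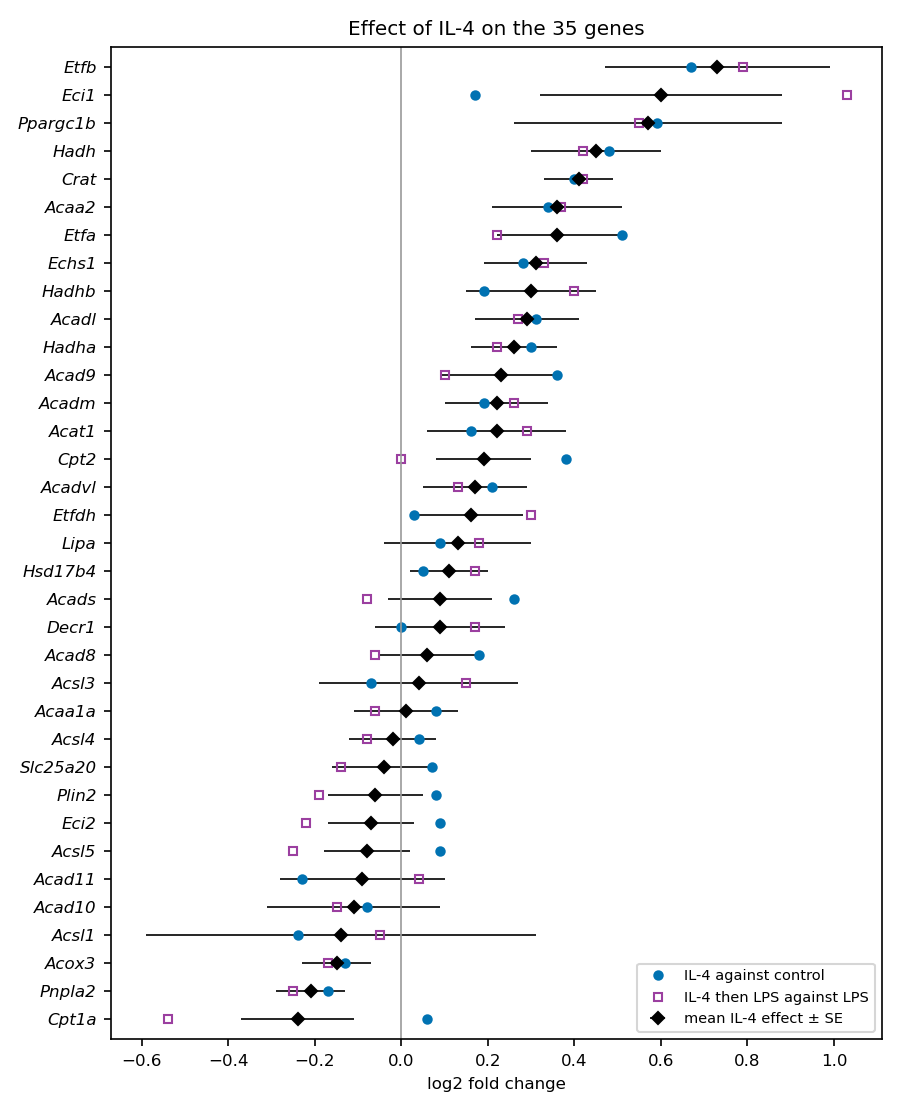
Effect of IL-4 on each of the 35 genes (log2 fold change), with the mean effect and its SE as black diamonds, IL-4 against control as blue circles and IL-4 then LPS against LPS as open squares, sorted by the mean. Etfb, Eci1, Ppargc1b, Hadh and Crat stand at the top and Cpt1a at the bottom, where its circle lies near 0 and its square at -0.54.

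Other genes of the pathway were taken from 7 lists of 107 genes, 89 of them tested. By edgeR 9 rose and 35 fell with LPS (10.1% and 39.3%, beside 21.8% and 18.6% of all genes), and 7 rose and 34 fell after IL-4 (7.87% and 38.2%, beside 20.7% and 18.6%). The single lists that follow are small, and their counts are to be read beside the same all-gene shares. The branched-chain acyl-CoA and ketone body list had 0 higher and 9 lower of 20 with LPS and 0 and 8 after IL-4, among them Hibch, of valine breakdown (-1.72 ± 0.48 and -1.73 ± 0.50). The peroxisomal list had 1 and 6 of 17, and 1 and 7 after IL-4, with Abcd2, a very long-chain acyl-CoA transporter, at -3.88 ± 0.33 and -2.95 ± 0.31. Carnitine synthesis and transport had 0 and 3 of 5, and 0 and 2, led by Tmlhe, the first enzyme of carnitine synthesis (-2.28 ± 0.25 and -1.40 ± 0.24).

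The other ligases and thioesterases had 2 higher and 7 lower of 14 with LPS, and 2 and 6 after IL-4. Acot2, a mitochondrial thioesterase, held 116 and 81 reads in control, 6 and 9 in LPS, 113 and 111 in IL-4, and 17 and 16 in IL-4 then LPS libraries, and Acot1, a near copy, 57 and 32, 1 and 0, 33 and 22, and 0 and 0 reads. Reads of this pair may be split between the copies. PPAR and PGC-1 partners had 2 and 4 of 10 in both comparisons, led by Lpin1, a phosphatidate phosphatase and coactivator (-5.42 ± 0.34 and -4.92 ± 0.32), with Rxra, the partner of PPARs, at -2.66 ± 0.24 and Pparg at -2.85 ± 0.36 after IL-4. Pparg reads were lower with LPS in both cases, at 285 and 287 in control and 57 and 23 in LPS libraries. They were 385 and 370 in IL-4 and 37 and 31 in IL-4 then LPS libraries. Lipid uptake and droplets had 3 and 3 of 14, and 2 and 4, with Fabp3, a fatty acid binding protein, at 3.38 ± 0.51 and 3.04 ± 0.50, and Soat1, which esterifies cholesterol, at -1.96 ± 0.16 and -1.96 ± 0.15. The malonyl-CoA and AMPK list had 1 and 3 of 9, and 0 and 3, led by Prkag2, a subunit of AMPK (-2.15 ± 0.47 and -2.34 ± 0.47). With IL-4 averaged over both states, 1 of the 89 was called, Cd36, a fatty acid transporter, at 0.97 ± 0.10 (edgeR adjusted p = 0.0113).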

How the data were processed

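The deposited table holds raw read counts per gene, whole numbers, which the authors made with HISAT2, StringTie and HTSeq on the mm10 genome, per the submitters' processing notes. Versions, strandedness and the handling of multiply mapped reads are not given in the sources used here. The table's other 6 columns of counts match no label and were not used. Gene lengths and coordinates are those of the deposited table, and 32 of the 35 genes had the same start and end in GENCODE M21.

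From the counts, edgeR 4.0.16 (R 4.3.3) kept 12234 of 54532 genes (filterByExpr), which held 99.84% to 99.92% of counts, scaled the 8 libraries by TMM, and fitted 1 mean per group with the quasi-likelihood test (4 residual and 3.78 prior degrees of freedom), with Benjamini-Hochberg adjustment over all genes tested and a threshold of 0.05. The script was tested on simulated data. The SE was taken from the fold change and the F statistic, and is approximate for low counts. A total of 6 comparisons was made. Alternatives were library-size and upper-quartile scaling, DESeq2 1.42.0, all genes with a read, a replicate block, only the groups compared, and leaving out each library. Deviations of same-numbered libraries correlated at 0.34 to 0.52 over the 6 pairs of groups, and same-numbered libraries share sex, so the numbers were taken to pair the libraries and blocked values are given where a call changed. The labels do not say what the numbers mark. The 35 genes and the other lists were chosen with earlier results of these data known. All 35 are accounted for, and values in every library are given for those called and for the 3 with the smallest p where fewer were called. Of other pathway genes at most 2 per list and comparison are named, those with the largest change, and 1 that the rule names is not reported here. Intervals were not computed, and reads carried no molecular identifiers.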

Additional observations from a re-analysis of the deposited data

How the results depend on the processing

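Over the 35 genes, scaling moved the most. With library-size scaling LPS against control called 2 higher and 25 lower (median -0.89, all genes 12.6% and 47%), with Acsl4 turned to -0.12. IL-4 then LPS against IL-4 called 2 and 23 (-0.87, all genes 12.6% and 43.5%). Upper-quartile scaling gave 20 lower in each (medians -0.56 and -0.59, all genes 29% and 28% lower). All directions of the other genes called were kept under every alternative run. DESeq2 called 6 and 11 (all genes 21.2% and 17.4%), and 5 and 12 (20.6% and 16.8%). The median difference of the LPS responses, -0.04 at first, was 0.02 with library-size scaling, -0.03 with upper-quartile scaling and with all genes that have a read, -0.02 with DESeq2 and -0.07 with the replicate block. For IL-4 then LPS against LPS the median was 0.23 with library-size scaling, and 0.19 with upper-quartile scaling and with only the groups compared.

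Leaving out 1 library, the one left in its group being assumed to vary like the other groups, gave 3 to 7 higher and 8 to 11 lower for LPS against control (medians -0.40 to -0.29) and 1 to 5 and 6 to 13 after IL-4 (-0.43 to -0.33). Of 17 and 18 calls, 9 and 7 were kept in all 8 omissions. The medians ran from -0.14 to 0.11 for the difference of responses, 0.09 to 0.17 for IL-4 against control, 0.07 to 0.18 for IL-4 then LPS against LPS and 0.10 to 0.18 for the mean IL-4 effect, each with 0 calls.

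With a replicate block 7 were called higher and 15 lower with LPS (all genes 28.2% and 25.5%), and 6 and 17 after IL-4 (26% and 25.8%). The block also called 2 higher in the mean IL-4 effect (Crat and Etfa) and 1 lower in IL-4 then LPS against LPS (Cpt1a, -0.54), and changed no call of the 35 genes beyond those named in the results. The causes were not tested. With 2 libraries per group, precision differed between genes. Without the block the SE was largest for Acsl1, whose replicates lay apart, while Crat and Acox3 were measured with SEs of 0.11 to 0.12. Etfb, Ppargc1b and Eci1, at few reads, had SEs of 0.35 to 0.44 in the LPS comparisons.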

Other observations

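Per kb of exon, Acsl1 stood in place 19 of the 35 genes in control cells at 8.23 CPM per kb, and in place 5 with LPS (57.5) and place 4 with IL-4 then LPS (55.6). Within each group its replicate 3 lay above replicate 1, by 0.79 in control, 1.73 in LPS, 0.95 in IL-4 and 1.35 in IL-4 then LPS cells on the log2 scale. Cpt1a, Acadvl, Acads, Hadha, Echs1, Etfa, Acox3, Acsl4, Acsl5, Pnpla2 and Plin2 shared this direction in every group. Their differences were smaller, at most 0.49 (Etfa in LPS). Fabp3, a fatty acid binding protein outside the 35 genes, held 84 and 150 reads in control, 605 and 1048 in LPS, 116 and 201 in IL-4, and 529 and 1214 in IL-4 then LPS libraries, again with more in replicate 3 of each group. Fabp3 was singled out after its values were seen. Since the libraries numbered 1 and 3 differ in sex, replicate number and sex cannot be told apart.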
